A study of Rattus norvegicus with 32 samples.

Results

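The Fos and Jun family of the activator protein 1 (AP-1) transcription factor was measured in rat brain after a binge of methamphetamine (METH). Its 7 genes, Fos, Fosb, Fosl1, Fosl2, Jun, Junb and Jund, were taken by gene name from the 28914 gene names in the count files, and all 7 were found and passed the filter on low counts in every comparison. Adult male Sprague-Dawley rats received 4 intraperitoneal injections at intervals of 2 h, either of METH hydrochloride at 10 mg/kg or of saline at 1 mL/kg, and brains were collected 24 h after injections ended. Total RNA depleted of ribosomal RNA was sequenced from 2 hippocampal regions, Ammon's horn (CA) and the dentate gyrus (DG), and from the nucleus accumbens (NAc) and the subventricular zone (SVZ), with 4 saline (Sal) and 4 METH libraries in each region, 32 in all. NAc and SVZ were taken as punches and DG and CA were scooped out, so that each library held a mixture of cell types, in which fewer cells of a type and less RNA per cell cannot be told apart.

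AP-1 is a pair of basic leucine zipper proteins bound to DNA. A Fos protein must join a Jun protein to bind, whereas Jun proteins can also pair with each other. Fos, Fosb and Junb belong to the immediate early genes, which neurons transcribe within minutes of strong synaptic or dopamine input and then switch off, Jund is expressed steadily in most cells, and Jun is also induced by cell stress through the kinases that phosphorylate its protein. In the striatum, repeated exposure to psychostimulants is known for the build-up of a truncated, stable form of the FosB protein, which counts per gene cannot separate from the full-length form.

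The libraries held between 11094002 and 21869773 counted read pairs, and in every library each of the 7 genes was counted with at least 19. By its neuronal markers, 5 of the 32 libraries stood apart from their region, by a rule set after the data were seen. Striatal neuron markers led in the other NAc and SVZ libraries, but thalamic markers led in NAc METH 3, SVZ Sal 1, SVZ METH 2 and SVZ METH 4, and striatal markers led in DG Sal 3, where cortical markers led in the rest of DG. The lead of the thalamic markers in NAc METH 3 was narrow. Dentate granule markers led in no DG library and pyramidal markers in no CA library. Choroid plexus markers, which the rule did not use, summed to 7983 CPM in SVZ METH 3 and 6060.5 CPM in DG METH 3. They summed to 2029 CPM in DG Sal 4 and 2199 CPM in CA Sal 2, and to at most 385 CPM elsewhere. The file headers also give each library a number, whose meaning is not stated. DG Sal 1 and 2 carried the numbers 20 and 21 and DG METH 1 and 2 the numbers 14 and 15, whereas in NAc and CA 14 and 15 were saline and 20 and 21 METH. In SVZ, METH 1 and 2 shared the number 1669 and METH 3 and 4 the number 1670. Values are CPM, the counts of a gene scaled to the size of its library, with upper-quartile normalization over all 32 libraries, and p-values measure the spread between these libraries, which the labels do not tie to separate rats.

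The 7 genes differed in level and, by a wide margin, in how evenly they were expressed. Jund was the most even, at 105 to 145 CPM over all 32 libraries, a ratio of 1.38 between the highest and the lowest. Jun ranged from 32.6 to 167 CPM and Junb from 11.6 to 74.4 CPM. Fos ranged from 2.16 to 25.4 CPM, an 11.8-fold span, Fosb from 0.979 to 17.8 CPM, an 18.2-fold span, and Fosl2 from 1.03 to 29.7 CPM, a 28.8-fold span. Fosl1, best known from growth factor responses outside the brain, had the lowest median count, 61.5 read pairs, and ranged from 2.08 to 6.67 CPM, a span of 3.21-fold.

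**Figure D1:**
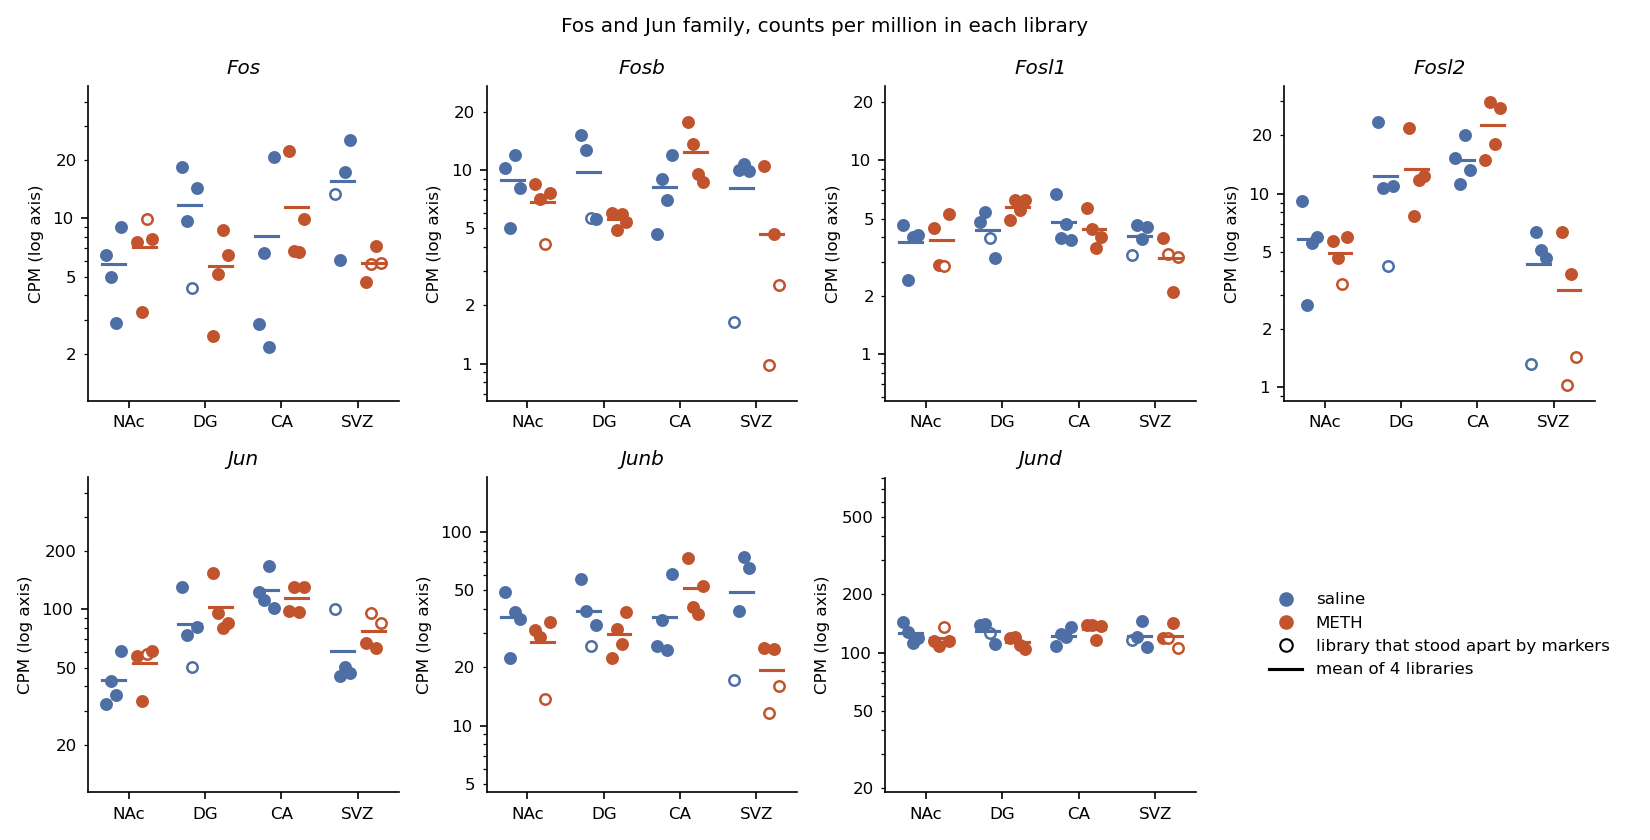
CPM of the 7 genes in each of the 32 libraries, on log axes that all span the same ratio, with saline libraries in blue and METH libraries in orange (4 per group), group means as lines, and the 5 libraries that stood apart by markers as open circles. Jund stays between 105 and 145 CPM everywhere, while Fosb and Fosl2 reach their lowest values, 0.979 and 1.03 CPM, in SVZ METH 2.

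Levels of different genes were compared per length, as CPM per kb of merged exon. On that scale Jund led in every group, with medians over the 32 libraries of 71.4 CPM per kb for Jund, 26.0 for Jun, 18.97 for Junb, 9.43 for Fosl2, 4.25 for Fos, 2.45 for Fosl1 and 2.09 for Fosb. Jund made up 59.98% ± 5.7 (SD, n = 4) of the summed length-scaled level of the family in saline NAc and 44.4% ± 2.7 in saline CA. The 4 Fos genes together made up between 9.18% ± 3.1 of it in METH SVZ and 23.0% ± 2.0 in METH CA. In CA their share was 15.6% to 19.8% in the saline and 21.3% to 25.4% in the METH libraries, ranges that did not overlap. In the other 3 regions the ranges overlapped, at 8.46% to 15.1% in saline and 11.2% to 14.4% in METH for NAc, 10.4% to 24.2% and 13.4% to 21.0% for DG, and 10.2% to 19.3% and 6.30% to 13.5% for SVZ. Fosl2 made the largest part of the Fos share in CA, and its level per length is the least certain, since its annotated model holds only 744 bases of exon in 16 blocks. The difference in the Fos share was not tested. By CPM, saline and METH CA libraries overlapped for each of the 7 genes taken alone, and they failed to overlap for 4.44% of all genes tested.

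**Figure D2:**
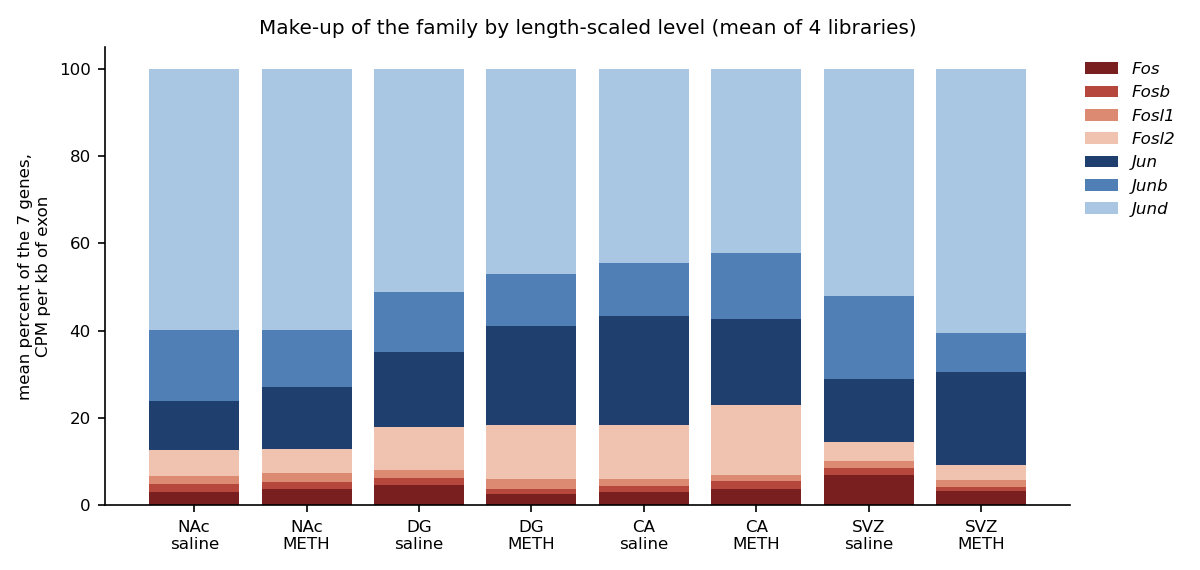
Mean share, in percent, of each of the 7 genes in the summed CPM per kb of the family in each group (mean of 4 libraries, Fos genes in reds at the bottom, Jun genes in blues above). Jund takes the largest share in every group, 59.98% in saline NAc against 44.4% in saline CA, and the Fos genes are smallest in METH SVZ at 9.18%.

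Promoters are given for 4 of the genes that the results turn on, Jund as the even member and Junb, Fosb and Fosl2 as members that varied. RefSeq promoters of the GRCr8 build, from 250 bases before to 50 bases after the start of the gene, were found for 5 of the 7, not including Fos and Jun. Each was searched on both strands for the AP-1 site TGANTCA, the cyclic AMP response element (CRE) TGACGTCA, the Egr site GCGNGGGCG, the TATA sequence TATAAA and the CArG box bound by serum response factor. Capitals mark the matches.
Jund (chr16:18769722-18770021, minus strand): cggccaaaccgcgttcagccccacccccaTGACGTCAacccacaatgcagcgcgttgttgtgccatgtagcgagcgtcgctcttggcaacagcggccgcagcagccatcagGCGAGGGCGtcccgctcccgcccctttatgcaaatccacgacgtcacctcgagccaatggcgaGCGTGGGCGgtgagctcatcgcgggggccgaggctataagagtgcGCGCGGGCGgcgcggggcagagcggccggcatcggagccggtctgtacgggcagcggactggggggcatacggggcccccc
Junb (chr19:40080876-40081175, plus strand): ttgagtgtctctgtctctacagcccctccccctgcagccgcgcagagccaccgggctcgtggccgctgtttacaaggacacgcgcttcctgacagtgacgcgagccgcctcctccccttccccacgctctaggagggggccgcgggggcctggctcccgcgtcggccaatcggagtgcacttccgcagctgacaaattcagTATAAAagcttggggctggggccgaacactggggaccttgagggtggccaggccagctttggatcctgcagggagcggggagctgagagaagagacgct
Fosb (chr1:88089135-88089434, minus strand): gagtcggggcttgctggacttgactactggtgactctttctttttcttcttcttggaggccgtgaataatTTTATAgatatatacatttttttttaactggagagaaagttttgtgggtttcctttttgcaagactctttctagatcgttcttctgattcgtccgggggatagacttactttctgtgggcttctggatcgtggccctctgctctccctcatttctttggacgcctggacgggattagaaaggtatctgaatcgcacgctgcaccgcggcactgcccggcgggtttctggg
Fosl2 (chr6:30039220-30039519, minus strand): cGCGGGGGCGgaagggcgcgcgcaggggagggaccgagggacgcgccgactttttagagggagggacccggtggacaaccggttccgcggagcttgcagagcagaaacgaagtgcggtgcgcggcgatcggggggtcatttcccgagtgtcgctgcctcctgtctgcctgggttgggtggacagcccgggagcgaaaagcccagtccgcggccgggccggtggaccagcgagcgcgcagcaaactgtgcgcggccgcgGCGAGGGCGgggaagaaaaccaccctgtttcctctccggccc
The Jund promoter held 1 CRE, a motif in 1.91% of 27457 rat promoters of this length, and 3 Egr sites, a motif in 5.29%. The Fosl2 promoter held 2 Egr sites, and the Junb and Fosb promoters each held 1 TATA sequence, a motif in 14.3% of promoters. The match lay at -49 to -44 from the start in Junb. In Fosb it lay at -180 to -175 and on the opposite strand. None of the 5, Fosl1 included, held TGANTCA, which was in 7.33% of promoters, or a CArG box, which was in 1.64%, within these 300 bases.

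Regions were compared first in the 16 saline libraries. By edgeR's quasi-likelihood F test, 2 of the 7 genes, Jun and Fosl2, differed between the regions at an unadjusted p under 0.05, a share of 28.6% beside 26.7% of all 15515 genes tested, so that the family stood near the background. Jun differed most. It was counted in saline CA at 124, 112, 167 and 102 CPM and in saline DG at 131, 73.98, 50.6 and 80.8 CPM. In saline NAc it stood at 32.6, 42.5, 36.2 and 60.9 CPM and in saline SVZ at 100.2, 45.5, 50.2 and 46.9 CPM. Every CA library was above every NAc and SVZ library, and DG lay between them with overlaps on both sides.

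Over the 4 regions the edgeR F test gave Jun an adjusted p (Benjamini-Hochberg over all genes tested) of 0.0405. By the pairwise tests of the same edgeR fit, Jun was lower in NAc than in CA by a log2 difference of -1.51 (SE 0.32, adjusted p = 0.0298), and higher in CA than in SVZ by 1.02 (SE 0.31, adjusted p = 0.0454). The order was CA, DG, SVZ and NAc by mean, and the neighbours did not differ beyond their spread, with log2 differences of -0.57 (SE 0.31) for DG minus CA, 0.44 (SE 0.31) for DG minus SVZ and -0.50 (SE 0.31) for NAc minus SVZ, at edgeR adjusted p of 0.594, 0.477 and 0.541. Without DG Sal 3 and SVZ Sal 1, which stood apart by markers, the 4-region F test gave Jun an adjusted p of 0.00212, and DG was then above SVZ by 0.96 (SE 0.26, adjusted p = 0.0325).

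Fosl2, which codes for a Fos protein without the strong activation domain of Fos, followed a like order. Its values were 15.3, 11.2, 20.0 and 13.2 CPM in saline CA and 23.5, 10.7, 4.23 and 10.9 CPM in saline DG, but 9.17, 2.67, 5.57 and 6.0 CPM in saline NAc and 1.32, 6.32, 5.13 and 4.63 CPM in saline SVZ. Again all 4 CA libraries were above all NAc and SVZ libraries, and the lowest DG library, DG Sal 3, was the one that stood apart. CA was above SVZ by a log2 difference of 1.73 (SE 0.50, edgeR adjusted p = 0.0374), while the F test over the regions did not pass after adjustment (adjusted p = 0.0868). Without the libraries that stood apart the edgeR adjusted p of the F test was 0.0139, with DG above NAc and SVZ as well (adjusted p = 0.0380 and 0.0305).

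By pair of regions, the genes under an unadjusted p of 0.05 were Jun for NAc against DG (1 of 7, 11.5% of all genes), Jun and Fosl2 for NAc against CA (2 of 7, 24.1%) and Fos for NAc against SVZ (1 of 7, 12.6%). They were Fosl2 for DG against SVZ (1 of 7, 17.6%) and Jun and Fosl2 for CA against SVZ (2 of 7, 31.6%), with none for DG against CA, where 8.93% of all genes passed. Fos, higher in saline SVZ than in saline NAc by a log2 difference of -1.43 for NAc minus SVZ (SE 0.66), had an edgeR adjusted p of 0.394. For Fosb, Fosl1, Junb and Jund no regional difference was detectable in saline, with edgeR adjusted p of the F test of 0.965, 0.727, 0.738 and 0.894, and Jund had means of 125.8 ± 13.4, 129 ± 13, 122 ± 11 and 122 ± 16 CPM (SD, n = 4) in NAc, DG, CA and SVZ.

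METH was then compared with saline within each region. A differentially expressed gene (DEG) was one with an adjusted p under 0.01 and a fold change over 1.5. None of the 7 was a DEG in any region, and the share of all genes that were was 0% in NAc, DG, CA and SVZ alike by edgeR. By DESeq2 there were 3, 175, 10 and 2 DEGs among all genes in these regions, none of them a member. None of the 7 had METH and saline libraries that failed to overlap in any region, beside 2.30% of all genes in NAc, 6.80% in DG, 4.44% in CA and 1.69% in SVZ. The genes are therefore counted at an unadjusted edgeR p under 0.05, which after adjustment left none. For members, most estimates from all 8 libraries of a region carry a two-sided exact permutation test. It compares the 4 against 4 log2 CPM values, and its smallest possible p is 0.0286. Other genes and other fits have no such test.

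In SVZ, 2 of the 7 genes passed an unadjusted p of 0.05, Fos and Junb, both lower after METH, a share of 28.6% beside 2.58% of all 15579 genes tested. Fos was at 13.4, 6.08, 17.3 and 25.4 CPM in the saline libraries and at 4.70, 5.82, 7.21 and 5.85 CPM in the METH libraries. Only Sal 2 lay within the METH range, and the METH libraries were tightly grouped. The log2 fold change was -1.39 (SE 0.40), a ratio of 0.383 (exact permutation p = 0.0571, edgeR adjusted p = 0.979).

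Junb, whose protein pairs with Fos proteins and can restrain Jun, was at 17.1, 39.0, 74.4 and 64.98 CPM in saline SVZ and at 25.3, 11.6, 24.8 and 15.96 CPM in METH SVZ. Sal 1, which stood apart by markers, was the only saline library within the METH range. The log2 fold change was -1.32 (SE 0.46), a ratio of 0.402 (exact permutation p = 0.0857, edgeR adjusted p = 0.979). Leaving out Sal 3, Sal 4, METH 2 or METH 4 took Junb above an unadjusted p of 0.05, at log2 fold changes of -1.06, -1.13, -1.13 and -1.23, and Fos stayed under it whichever single library was left out.

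The SVZ libraries that stood apart were also low in other members. Fosb was at 1.65 CPM in Sal 1, 0.979 in METH 2 and 2.55 in METH 4, against 10.0, 10.7 and 9.87 in Sal 2, 3 and 4, 10.5 in METH 1 and 4.65 in METH 3. Fosl2 was likewise at 1.32, 1.03 and 1.44 CPM in those 3 libraries and at 3.85 to 6.37 CPM in the other 5, whereas Jun was highest in them, at 100.2, 96.0 and 84.8 CPM against 45.5 to 66.7. In the same 3 libraries the 5 thalamic markers summed to 1103 to 1822 CPM against 84.8 to 468 in the others, the 8 striatal markers to 206 to 598 CPM against 1505 to 5357, and the 6 oligodendrocyte markers to 18885 to 27419 CPM against 3853 to 9376. Junb too was lowest in them, at 17.1, 11.6 and 15.96 CPM against 24.8 to 74.4 CPM in the other 5. The part of these cell types in the levels of Fosb, Fosl2, Jun and Junb was not tested. Fos did not sort by them, with 13.4, 5.82 and 5.85 CPM in the 3 libraries.

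**Figure D3:**
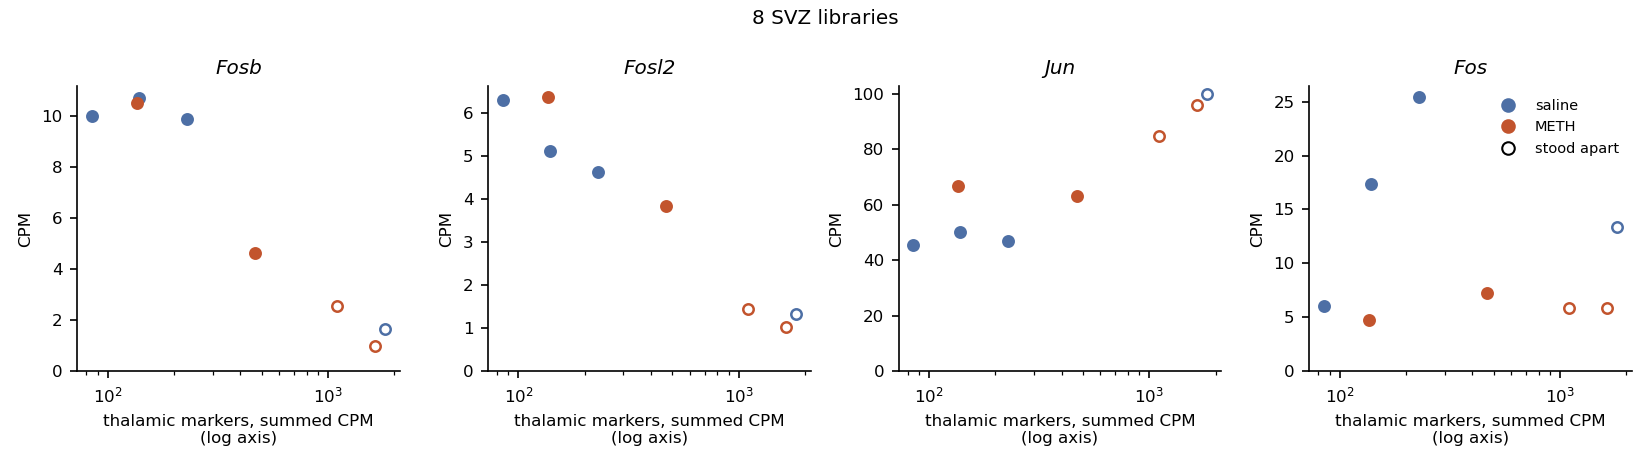
CPM of Fosb, Fosl2, Jun and Fos in the 8 SVZ libraries against the summed CPM of 5 thalamic markers on a log axis, with saline in blue, METH in orange and the libraries that stood apart as open circles. The 3 open circles lie at 1103 to 1822 CPM of thalamic markers with the lowest Fosb and Fosl2 and the highest Jun, and do not share a level of Fos.

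Without those 3 libraries, 3 saline and 2 METH libraries remained. The log2 fold change of Fos was then -1.42 (SE 0.60), no longer under the unadjusted threshold, that of Junb -1.22 (SE 0.28) and that of Jun 0.47 (SE 0.11), both under it, with edgeR adjusted p of 0.664 for both. Among all genes, 1080 of 16050 were then under the unadjusted threshold. Striatal markers still did not overlap between the groups that remained, at 3028, 5357 and 3526 CPM in saline and 1505 and 2524 CPM in METH. METH 3 also held 7983 CPM of choroid plexus markers, against 7.4 to 127 CPM in the rest. The part of these cell types in the estimates was not tested. All 8 libraries gave for Jun 0.37 (SE 0.27, exact permutation p = 0.229). For Fosb the estimate with all 8 libraries was -0.77 (SE 0.76) and without the 3 it was -0.41 (SE 0.35). The headers mark Sal 1, Sal 2, METH 2 and METH 4 as EXTRA. Among these, Junb was at 17.1 and 39.0 CPM in saline and 11.6 and 15.96 CPM in METH, and among the other 4 at 74.4 and 64.98 CPM against 25.3 and 24.8 CPM. With the mark as a covariate the log2 fold changes were -1.28 (SE 0.35) for Fos and -1.24 (SE 0.26) for Junb. With the METH libraries of the same number summed, they were -1.40 (SE 0.55) and -1.34 (SE 0.58), and Junb was no longer under the unadjusted threshold.

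In DG, 1 of the 7 genes passed an unadjusted p of 0.05, Fosb, a share of 14.3% beside 12.8% of all 14800 genes tested, so that the count was near the background. Fosb was at 15.1, 12.7, 5.68 and 5.55 CPM in the saline and at 6.01, 4.92, 5.89 and 5.38 CPM in the METH libraries. The log2 fold change was -0.78 (SE 0.32, exact permutation p = 0.229, edgeR adjusted p = 0.372), and only DG Sal 1 and 2 lay above the METH range. Leaving out Sal 1, Sal 2 or any 1 of the METH libraries took Fosb above an unadjusted p of 0.05, at log2 fold changes of -0.50 to -0.82. Fos was at 18.4, 9.70, 4.36 and 14.3 CPM in saline and at 2.48, 5.13, 8.65 and 6.45 CPM in METH, with a log2 fold change of -1.01 (SE 0.49, exact permutation p = 0.171, edgeR adjusted p = 0.436). In the same comparison the 8 striatal markers had a median of -2.16 with 0 of 8 above 0. The 6 dentate granule markers had one of 1.25 with 5 of 6 above 0. The 4 cortical markers tested had one of -1.26 with 1 of 4 above 0. Sal 3 held 1679 CPM of the striatal and 45.2 CPM of the cortical markers. The part of these cell types in the levels of the 7 genes was not tested.

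DG Sal 1 and 2 were the libraries with the numbers 20 and 21, which are METH numbers in NAc and CA. Without replicates 1 and 2 of both treatments the log2 fold change of Fosb was -0.01 (SE 0.26) and that of Fos -0.32 (SE 0.65), with edgeR adjusted p of 0.996 and 0.940. Without DG Sal 3, the library with striatal markers, both were larger, at -0.96 (SE 0.30) for Fosb and -1.28 (SE 0.41) for Fos, both under the unadjusted threshold (edgeR adjusted p = 0.236 and 0.244), beside 2070 of 14929 genes tested. The headers also carry marks in the names of the aligned files (JJ, RNA2, RNA3 and, in CA Sal 1 and 2, merged), called runs here. The methods do not tie these marks to the sequencing batches they mention. Only JJ held DG libraries of both treatments. Within it Fosb was at 5.68 CPM in Sal 3, the only saline library there, and at 6.01 and 4.92 CPM in METH 1 and 2. Jun was at 50.6 CPM in Sal 3 and at 153 and 95.4 CPM in METH 1 and 2. With the run mark as a covariate the estimates therefore rest on Sal 3, the library with striatal markers. The log2 fold change was then -0.08 (SE 0.52) for Fosb and 1.27 (SE 0.42) for Jun. That of Jun was 0.31 (SE 0.30) without the mark and 0.14 (SE 0.28) without Sal 3. Junb in DG was at 38.9 ± 13.5 CPM in saline and 29.7 ± 7.0 CPM in METH (SD, n = 4, exact permutation p = 0.286), and Fosl1 at 4.34 ± 1.0 and 5.72 ± 0.65 CPM (exact permutation p = 0.0571, edgeR adjusted p = 0.418).

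In CA, 1 of the 7 genes passed an unadjusted p of 0.05, Fosl2, a share of 14.3% beside 7.16% of all 14612 genes tested. Fosl2 was at 15.3, 11.2, 20.0 and 13.2 CPM in the saline and at 14.9, 29.7, 18.1 and 27.7 CPM in the METH libraries. METH 2 and 4 were above every saline library and METH 1 and 3 were among them. The log2 fold change was 0.59 (SE 0.25), a ratio of 1.51 (exact permutation p = 0.143, edgeR adjusted p = 0.688). It was 0.46 (SE 0.33) with the run mark as a covariate, no longer under the unadjusted threshold, and 0.44 to 0.77 when each library was left out in turn. Leaving out Sal 1, Sal 2, Sal 4, METH 2 or METH 4 took it above the threshold. Within run RNA2 it was at 20.0 CPM in Sal 3 and at 18.1 and 27.7 CPM in METH 3 and 4, and within run RNA3 at 13.2 CPM in Sal 4 and at 14.9 and 29.7 CPM in METH 1 and 2. Sal 1 and 2 carried the mark merged, which no METH library held. The estimate with the run mark therefore rests on Sal 3 and 4 among the saline libraries. Over all 8 CA libraries the 6 dentate granule markers had a median log2 fold change of -0.90 with 1 of 6 above 0. The 8 striatal markers had one of 0.60 with 6 of 8 above 0. The part of these cell types in the levels of the 7 genes was not tested.

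Fosb in CA was at 4.70, 8.96, 6.97 and 11.9 CPM in saline and at 17.8, 13.6, 9.56 and 8.65 CPM in METH, a log2 fold change of 0.61 (SE 0.31, exact permutation p = 0.171). Fos was very uneven there, with 2.84, 6.63, 2.16 and 20.8 CPM in saline and 22.2, 6.80, 6.70 and 9.95 CPM in METH. The high libraries, Sal 4 and METH 1, came from opposite groups, and the fold change of 0.51 (SE 0.70, exact permutation p = 0.229) became -0.01 without METH 1 and 1.57 without Sal 4. The median log2 fold change of the 7 genes was 0.49 in CA, -0.44 in SVZ, -0.17 in DG and -0.06 in NAc, beside 0.01, 0.02, -0.01 and 0.03 over all genes tested.

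In NAc, none of the 7 genes passed an unadjusted p of 0.05 by edgeR, beside 3.39% of all 14771 genes tested, and none by DESeq2. Fosb was at 10.2, 5.02, 12.0 and 8.02 CPM in saline and at 8.50, 7.08, 4.15 and 7.61 CPM in METH, a log2 fold change of -0.34 (SE 0.29, exact permutation p = 0.371). Junb was at 49.0, 22.4, 38.8 and 35.6 CPM in saline and 31.2, 28.5, 13.7 and 34.4 CPM in METH, with the lowest value in METH 3, which stood apart. The Junb fold change of -0.41 (SE 0.30, exact permutation p = 0.286) was -0.19 (SE 0.22) without METH 3. In METH 3 the striatal markers summed to 170 CPM, against 1361 to 8275 CPM in saline NAc, and the thalamic markers to 234 CPM. Jun was at 32.6, 42.5, 36.2 and 60.9 CPM in saline and 57.7, 33.5, 59.1 and 61.2 CPM in METH (log2 fold change 0.32, SE 0.25, exact permutation p = 0.40), with METH 2 well below the other METH libraries.

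**Figure D4:**
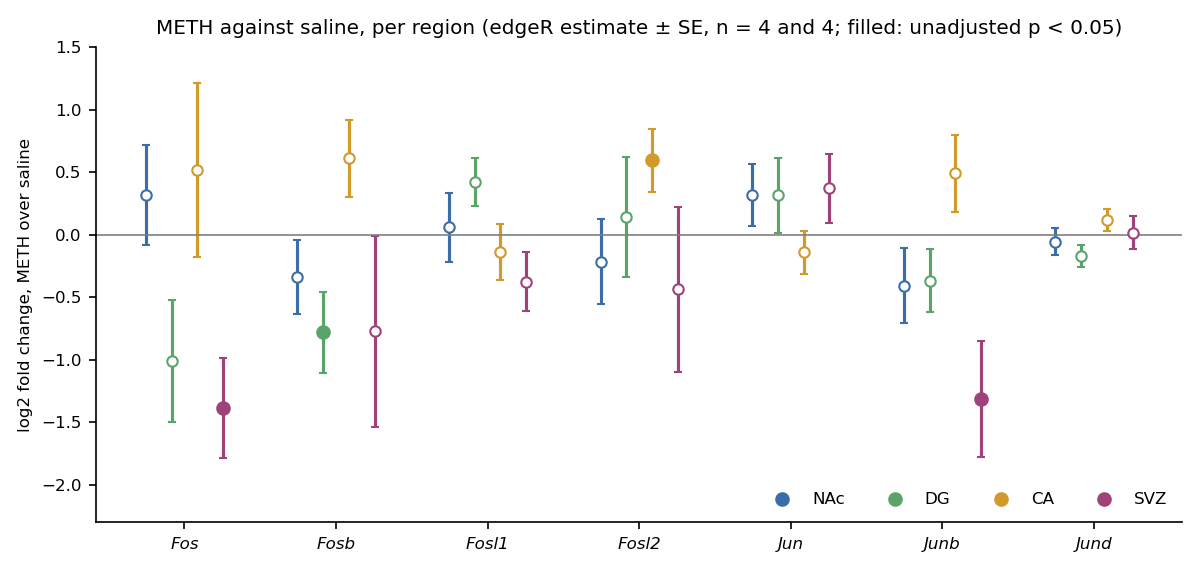
Log2 fold change, METH over saline, of the 7 genes in NAc, DG, CA and SVZ, as the edgeR estimate with its SE from 4 saline and 4 METH libraries, filled where the unadjusted p was under 0.05. The filled points are Fosb in DG, Fosl2 in CA and Fos and Junb in SVZ, and Jund lies within 0.17 of 0 in every region.

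The METH effect averaged over the 4 regions was taken from 1 edgeR fit of all 32 libraries, which treats them as independent although the same 8 library numbers recur in NAc, DG and CA. There 1 of the 7 genes, Junb, passed an unadjusted p of 0.05, a share of 14.3% beside 7.83% of all 16122 genes tested, at a log2 fold change of -0.40 (SE 0.19, edgeR adjusted p = 0.622). It was -0.32 to -0.40, above the threshold, without NAc Sal 1, Sal 3 or METH 3, DG Sal 1, METH 1 or METH 3, CA Sal 4, METH 2 or METH 3, or SVZ Sal 3, Sal 4, METH 2 or METH 4, each left out alone. The averaged fold changes of the other genes were -0.40 (SE 0.29) for Fos, -0.33 (SE 0.25) for Fosb, 0.21 (SE 0.14) for Jun and within 0.03 of 0 for Fosl1, Fosl2 and Jund.

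Junb was also the 1 gene of the 7 whose METH effect differed between the regions at an unadjusted p under 0.05, beside 7.74% of all genes tested (edgeR F test with 3 degrees of freedom, adjusted p = 0.548). Its log2 fold change was 0.49 (SE 0.31) in CA, against -0.41 in NAc, -0.37 in DG and -1.32 in SVZ. Leaving out CA METH 1, SVZ Sal 3 or SVZ Sal 4 took this test above the threshold. Without the 5 libraries that stood apart, both Junb and Fosb were under it (edgeR adjusted p = 0.259 and 0.328), beside 1969 of 16434 genes tested. For Fos, which was higher after METH in CA and NAc and lower in DG and SVZ by its estimates, the test of the difference gave an edgeR adjusted p of 0.696.

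Fos and Junb were then compared across NAc, DG and CA by the library number in the headers, as each of the 8 numbers occurs in all 3 regions. DG and CA held the same numbers high. For Fos, number 20 was at 18.4 CPM in DG and 22.2 CPM in CA and number 23 at 14.3 and 20.8 CPM, while number 14 was at 2.48 and 2.84 CPM and number 22 at 4.36 and 2.16 CPM. The libraries that agreed did not carry the same treatment label for the numbers 14, 15, 20 and 21. Pearson's r of log2 CPM between DG and CA was 0.880 and Spearman's rho 0.905 over 8 numbers (exact permutation tests, p = 0.00533 and 0.00456, Benjamini-Hochberg adjusted 0.0680 and 0.0958 over 21 correlations of 7 genes and 3 pairs of regions). Without the 2 numbers farthest from the median in DG, r was 0.804.

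Junb gave an r of 0.852 and a rho of 0.857 between DG and CA (exact permutation tests, p = 0.00647 and 0.0107, adjusted 0.0680 and 0.112), and r was 0.659 without the 2 farthest numbers. Neither correlation passed the correction. NAc did not follow, with r of 0.348 against DG and 0.601 against CA for Fos (exact permutation p = 0.393 and 0.117) and of -0.03 and -0.12 for Junb. Across the 21, the next smallest p was for Jund between NAc and CA, at r = -0.834 (exact permutation p = 0.0108, adjusted 0.0755), and r was -0.402 without the 2 farthest numbers. The numbers 20, 21 and 23 were in run RNA3 and the numbers 24 and 25 in run RNA2 in both DG and CA. For these, number and run cannot be told apart. In DG the numbers 14, 15 and 22 were in run JJ. In CA, 14 and 15 carried the mark merged and 22 was in run RNA2. A run held at most 3 shared numbers, too few for a value of its own.

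**Figure D5:**
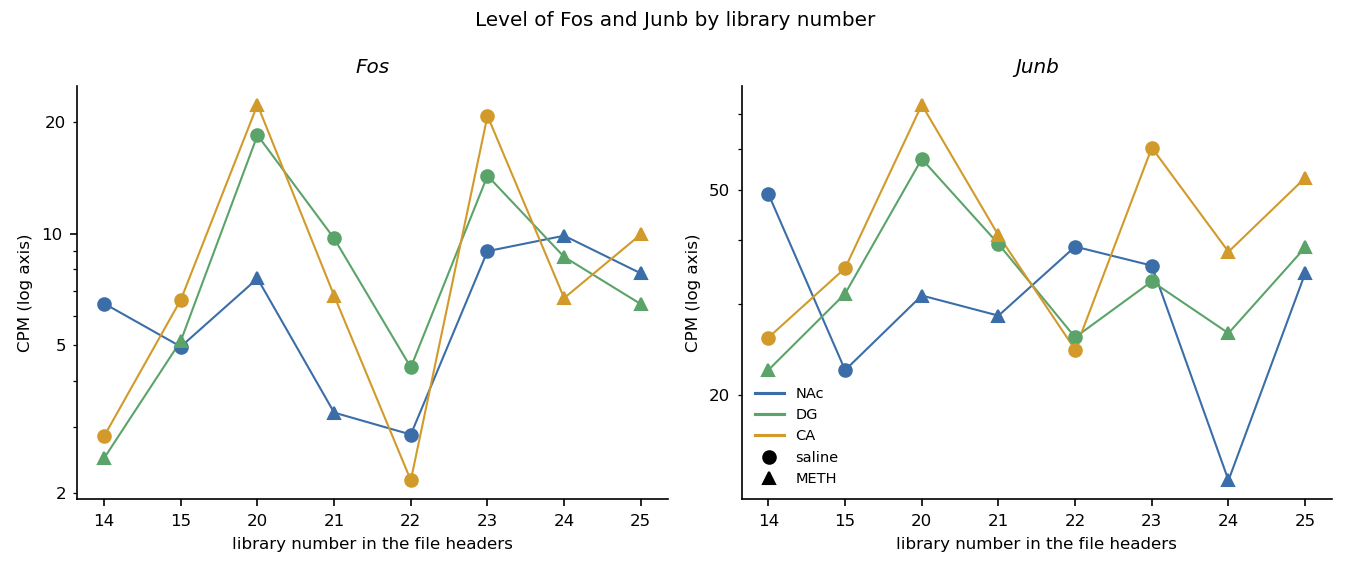
CPM of Fos and Junb on log axes in NAc (blue), DG (green) and CA (yellow) for each of the 8 library numbers in the file headers, with circles for libraries labelled saline and triangles for METH. DG and CA peak together at number 20, at 18.4 and 22.2 CPM for Fos, although the DG library is labelled saline and the CA library METH.

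Around their group means, the members fell into different company over the 32 libraries. Correlations here are Pearson's r of log2(CPM + 1) after the mean of each of the 8 groups was subtracted, among 14450 genes with a mean of at least 1 CPM, and describe libraries that also share tissue make-up. The genes nearest to Junb were other immediate early genes, Egr1 (r = 0.923), Egr4 (r = 0.897) and Nr4a1 (r = 0.891), all of them transcription factor genes induced by neuronal activity. Those nearest to Fos were Dusp1 (r = 0.766), which codes for a phosphatase of the MAP kinases, Cchcr1 (r = 0.751) and Usp43 (r = 0.719).

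Fosb was nearest to Ctxn1 (r = 0.911), Gas7 (r = 0.902) and AABR07002910.1 (r = 0.902), and Fosl2 to the cyclin gene Ccnd2 (r = 0.871), Slit3 (r = 0.852) and Hps3 (r = 0.837). For Jun they were Mpdz (r = 0.851), AABR07027407.1 (r = 0.846) and Prune2 (r = 0.836), for Fosl1 the Mediator gene Med1 (r = 0.785), Gatad2b (r = 0.777) and Ppp2r5c (r = 0.770), and for Jund Castor2 (r = 0.782), RGD1563441 (r = 0.759) and Pnrc1 (r = 0.698). Within the family, the highest correlations were between Fosb and Junb (r = 0.814) and Fosb and Fosl2 (r = 0.693). Fos and Junb stood at r = 0.488, Fos and Fosb at 0.202, and Jun ran against Junb (r = -0.373) and Fosb (r = -0.340).

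Other immediate early genes were counted from a list of 30, of which 28 were tested in every region. In SVZ, 5 of the 28 passed an unadjusted p of 0.05, beside 2.58% of all genes, and all 5 were lower after METH, with a median log2 fold change of -0.37 over the list. In the same comparison the 8 striatal markers had a median of -1.27 with 0 of 8 above 0, and the 6 oligodendrocyte markers one of 0.83 with 6 of 6 above 0, and their part in the list was not tested. Arc, which codes for a synaptic capsid-like protein, was at -1.14 (SE 0.32) with no overlap between the groups, Npas4, a neuronal activity factor, was at -3.51 (SE 1.00), and the clock gene Per1 was at -0.48 (SE 0.14), each as a log2 fold change. In DG 4 of the 28 passed, 14.3% beside 12.8% of all genes and so near the background, all of them lower, led by the kinase gene Sik1 at -0.85 (SE 0.25), Dusp1 at -0.87 (SE 0.37) and Egr2 at -0.91 (SE 0.40), with a median of -0.26. The part of the cell type markers given above for DG in this list was not tested.

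In CA 5 of the 28 passed, beside 7.16% of all genes, 4 higher and 1 lower, with a median of 0.14. Klf4 was higher by 0.91 (SE 0.23), Csrnp1 by 0.46 (SE 0.14) and Sik1 by 0.88 (SE 0.27). The part of the cell type markers given above for CA in this list was not tested. In NAc 3 of the 28 passed, beside 3.39% of all genes, 1 higher and 2 lower, with a median of -0.18. They were Maff at 0.72 (SE 0.27), Nr4a2 at -1.63 (SE 0.63) and Npas4 at -1.03 (SE 0.43). None of these genes was a DEG, and the lowest edgeR adjusted p among those named was 0.245, for Sik1 in DG.

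Of 16 other basic leucine zipper genes whose proteins can join or compete with AP-1, 11 were tested in each region, and 1, 0, 2 and 2 passed an unadjusted p of 0.05 in NAc, DG, CA and SVZ, beside 3.39%, 12.8%, 7.16% and 2.58% of all genes. Nfe2l2, the oxidative stress factor, was higher after METH in CA by 0.26 (SE 0.09) and in SVZ by 0.28 (SE 0.12), without overlap between the groups in either. Mafk, a small Maf gene, was higher in CA by 0.36 (SE 0.15), and Jdp2, whose protein represses AP-1 sites, was lower in SVZ, at -0.27 (SE 0.12). The gene in NAc was Maff, given above with the immediate early genes. Among the genes named from this list the lowest edgeR adjusted p was 0.669, for Nfe2l2 in CA.

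Kinases upstream of Fos and Jun were a list of 16, all tested, with 0, 0, 3 and 3 at an unadjusted p under 0.05 in NAc, DG, CA and SVZ, beside the same shares of all genes, and with 1 higher and 2 lower in both CA and SVZ. In CA, Mapk9, which codes for a Jun kinase, was at -0.26 (SE 0.09) and Map2k2 at 0.24 (SE 0.10). In SVZ, Camk4, a calcium-dependent kinase gene, was at -0.93 (SE 0.33), Rps6ka3 at -0.30 (SE 0.13) and Mapk3 at 0.38 (SE 0.15). The lowest edgeR adjusted p among these kinase genes was 0.669, for Mapk9. Of 16 genes for factors that act at Fos and Jun promoters, 14 were tested, and 0, 4, 4 and 2 passed, beside 3.39%, 12.8%, 7.16% and 2.58% of all genes. They were 3 higher and 1 lower in DG, 1 higher and 3 lower in CA, and 1 of each in SVZ.

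Among those factors, the activity-dependent Mef2a was higher after METH in DG by 0.41 (SE 0.14) and lower in CA and SVZ, at -0.34 (SE 0.10) and -0.26 (SE 0.09). In CA, Elk1 was at -0.26 (SE 0.08) and the CREB coactivator gene Crtc1 at -0.44 (SE 0.13), both without overlap between the groups. In DG, Elk3 was at 0.28 (SE 0.10) and Mrtfa at 0.63 (SE 0.25). In SVZ, Elk4 was at 0.30 (SE 0.13). Among these named factors the lowest edgeR adjusted p was 0.288, for Mef2a in DG, and Mef2a had 0.669 in CA and 0.979 in SVZ.

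Of 20 genes known from textbooks as AP-1 targets, 16 were tested in NAc, CA and SVZ and 17 in DG, and 3, 3, 2 and 2 passed an unadjusted p of 0.05 in NAc, DG, CA and SVZ, beside 3.39%, 12.8%, 7.16% and 2.58% of all genes. All were higher except 2 of the 3 in DG. Gfap, also the classic astrocyte marker, was higher after METH by 1.58 (SE 0.32) in NAc, 0.74 (SE 0.29) in DG and 0.91 (SE 0.37) in SVZ, with edgeR adjusted p of 0.9995, 0.345 and 0.979. Of the 6 astrocyte markers, Gfap included, 5, 6 and 5 were above 0 in these regions, with median log2 fold changes of 0.41, 0.26 and 0.03, and Slc1a3 was at 0.38 (SE 0.10) in NAc without overlap between the groups. The part of astrocytes in the level of Gfap was not tested. Ccnd1, a cyclin of the G1 phase, was at 28.5 ± 1.4 CPM in saline CA and 40.8 ± 1.0 CPM in METH CA (SD, n = 4), a log2 fold change of 0.52 (SE 0.07, edgeR adjusted p = 0.0979). The neuropeptide gene Nts was higher in NAc by 1.00 (SE 0.40) and the protease inhibitor gene Timp1 in NAc by 0.98 (SE 0.38) and in CA by 0.86 (SE 0.36). Vgf was lower in DG, at -0.72 (SE 0.28). Th, the gene of the rate-limiting enzyme of dopamine synthesis, was at -1.50 (SE 0.36) in DG and at 1.32 (SE 0.41) in SVZ, at group means of 0.470 to 2.12 CPM. The edgeR adjusted p was 0.185 and 0.979 for Th in DG and SVZ and 0.350 for Vgf. It was 0.9995 for Nts, and for Timp1 0.9995 in NAc and 0.688 in CA.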

How the data were processed

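RNA was sequenced from 32 rat brain libraries. Per the file headers, the authors counted read pairs per gene name with featureCounts 1.6.3, without strand and with a mapping quality minimum. Cutadapt 2.7, FastQC 0.11.4 and STAR 2.5.2b (rn6 genome) are named in the submitters' processing notes and methods. The deposited counts are whole numbers, not normalized. Without strand, reads of an antisense transcript cannot be told from those of the gene. The headers name an Ensembl annotation and the methods a UCSC annotation.

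Counts were normalized by upper quartile and tested with edgeR 4.0.16 (R 4.3.3, quasi-likelihood, filterByExpr), with 8 libraries per region for METH against saline, all 32 for the average and the difference between regions, and the 16 saline libraries for regions, with Benjamini-Hochberg adjustment over all genes tested. SE is the log2 fold change over the square root of F. For single members a two-sided exact permutation test of mean log2 CPM was added after the data were seen. Alternatives were DESeq2 1.42.0, TMM, no filter, covariates, the replicate number as a block, the series count matrix and libraries left out. Median depth was 14533166 counts. Scripts were tested on simulated data. Genes were named by rule: the 7 members, the 3 genes of lowest p per list and region, and the 3 nearest genes per member. A gene that the rule names is not reported here. The members and lists were chosen with earlier results of these data known. Replicates of a group differed beyond counting noise in all 48 pairs.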

Additional observations from a re-analysis of the deposited data

Results flagged for a closer look

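For a lowest or highest library far from the other 3 of its group, 56 groups (7 genes in 8 groups of 4) were examined on the log2 scale and 4 stood out, where chance alone would mark about 1 in 20 groups. SVZ Sal 1 was far below the other saline SVZ libraries in Fosb, at 1.65 CPM, and far above them in Jun, at 100.2 CPM. It is among the libraries with thalamic markers, and their part was not tested. NAc METH 2 was low in Jun, at 33.5 CPM, and CA METH 3 was low in Jund, at 116.5 CPM. The METH effect on Junb differed between the regions at an unadjusted p under 0.05 by the edgeR F test, with an adjusted p of 0.548.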

How the results depend on the processing

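Values are the number of the 7 genes under an unadjusted p of 0.05, beside 0 in NAc, 1 in DG, 1 in CA, 2 in SVZ, 1 for the average, 1 for the difference between regions and 2 for the saline regions. The cause of each change was not tested. The deviations of libraries with the same replicate number in the labels, which is not the library number of the headers, from their group means correlated at r from -0.779 to 0.417, not over 0.1 in all 4 pairs of any region, so the replicate numbers did not pair saline with METH libraries. With the replicate block 0 passed in CA, 1 in SVZ, 0 for the average, 0 for the difference and 3 in saline. Among all genes tested, 1131, 167, 878, 804 and 3998 passed there. In DG 1 still passed, beside 1819 of 14800 genes, but it was Jun (0.34, SE 0.13) in place of Fosb (-0.66, SE 0.31). The RNA integrity number gave 2 in NAc and 0 in CA and for the average, and in DG Jun (0.63, SE 0.21) passed in place of Fosb (-0.40, SE 0.26). Among all genes, 1786 of 14771 passed with it in NAc, against 500 without it. RUVr factors gave 1 in NAc, 2 in DG, 4 in CA and 6 in SVZ. Among all genes, 2027 of 14771, 3032 of 14800, 1949 of 14612 and 3125 of 15579 passed with these factors. Without them 500, 1890, 1046 and 402 passed. DESeq2 gave 2 in DG and 2 for the difference, beside 2209 of 22492 and 1523 of 24432 genes. Over all genes it gave 3, 175, 10 and 2 DEGs in NAc, DG, CA and SVZ against 0 by edgeR. Without the libraries that stood apart there were 2 in DG and 2 for the difference, beside 2070 of 14929 and 1969 of 16434 genes. Only Sal 3 and 4 of saline CA shared a run mark with METH libraries. With that mark as covariate 0 passed in CA, beside 777 of 14612 genes. These settings and the EXTRA mark were chosen after seeing the data. The fit of all 32 libraries gave 0 in DG and CA, beside 2351 and 588 of 16122 genes. DG without replicates 1 and 2 gave 0, beside 1033 of 15368 genes, and SVZ with METH libraries summed by number gave 1, beside 176 of 16105. Leaving out 1 library at a time gave 0 to 1 in NAc, 0 to 2 in DG, 0 to 3 in CA, 1 to 3 in SVZ, 0 to 2 for the average and for the difference, and 2 to 3 in saline. Among all genes, 331 to 761 then passed in NAc, 1225 to 2070 in DG, 623 to 1639 in CA and 156 to 2596 in SVZ. For the average 1039 to 2313 passed, for the difference 874 to 2361 and in saline 3231 to 4954. The sign of the log2 fold change turned with the run for Fos (-0.13), Fosl1 (-0.13) and Jun (-0.081) in NAc, Junb in DG (0.034) and Fosl1 in CA (0.018), with the RNA integrity number for Fosl1 in NAc (-0.019), without replicates 1 and 2 for Junb in DG (0.12), and without the library that stood apart for Fosl2 in DG (-0.14). For Jund in SVZ it turned without a filter (-0.0014), with DESeq2 (-0.0046) and with METH libraries summed (-0.0048), and with DESeq2 for the average of Fosl2 (-4.8e-05). Over single libraries left out it turned for Fosl1 (-0.13 to 0.18) and Fosl2 (-0.46 to 0.062) in NAc, Fosl2 in DG (-0.18 to 0.64), Fos (-0.013 to 1.57), Fosl1 (-0.27 to 0.070) and Jun (-0.23 to 0.024) in CA, Jund in SVZ (-0.082 to 0.098), and the averages of Fosl1 (-0.058 to 0.037) and Fosl2 (-0.13 to 0.14). Of 409 member values under other settings 362 kept direction and side of the threshold, as did 696 of 784 with 1 library left out. Fos, Fosb, Fosl1 and Fosl2 rested on 19 to 456 read pairs per library.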
